A study of Danio rerio with 8 samples.

Results

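The axon guidance ligands and receptors studied here were the probe sets of a zebrafish expression array whose annotated gene symbol named an ephrin, an Eph receptor, a semaphorin of classes 3 to 7, a plexin, a neuropilin, a Slit, a Robo, a netrin or its receptors, a Crmp, Dpysl or Dcx protein, or Rtn4. This choice by name took 54 of 15502 probe sets. Of these, 53 carried 1 gene symbol, for 46 genes of the 8793 named on the array, and 50 probe sets of 43 genes encoded guidance proteins. The other 3 with 1 symbol were taken only because their names begin alike: dcxr (L-xylulose reductase), unc50 (a Golgi-associated protein) and rtn4ip1 (a mitochondrial protein that binds Rtn4). A further probe set was annotated with both dcxr and col1a1b. The samples were whole retinas of albino zebrafish (Danio rerio): 4 control arrays from unlesioned retinas of fish put back into normal light, and 4 light lesion arrays from fish held in constant bright light for 72 hours. Both groups had first been adapted to the dark. The labels do not give the age or sex of the fish, nor whether a replicate was 1 fish or a pool, so the p-values speak only of how far these arrays differ among themselves. Bright light and the injury it causes cannot be told apart in this design.

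Guidance cues are surface-bound or secreted proteins that attract or repel a growing axon by acting on receptors at its tip, the growth cone, where they set the assembly of actin and microtubules. In the retina, opposing gradients of ephrins and Eph receptors give ganglion cell axons their place on the map in the tectum, while Slit and Robo, semaphorins with their plexin and neuropilin receptors, and netrin steer the axons out of the eye and along the optic tract. Many of the same proteins also act outside axons, in blood vessels, in glia and in the positioning of neurons. The arrays were made to find genes whose transcripts change while photoreceptors are replaced.

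All values are deposited RMA values on the log2 scale, in which a difference of 1 is a 2-fold difference. Differences are light lesion mean minus control mean, and "higher", "lower", "rose" and "fell" are used of probe sets with an adjusted p under 0.05 (limma, Benjamini-Hochberg over all 15502 probe sets). Over the whole array this threshold was passed by 40.2% of probe sets, 19.5% higher and 20.7% lower. Of the 54 probe sets chosen by name, 6 were higher and 11 lower, and of the 50 for guidance proteins 4 were higher, 11 lower and 35 did not pass. That is 30.0% of the guidance probe sets, below the share of the whole array. In whole-retina RNA fewer cells of a type and less RNA per cell cannot be told apart. Their median log2 fold change was -0.11, beside -0.04 for all probe sets. Counted as genes, each read from its brightest probe set, 4 of 43 rose and 10 fell, beside 24.4% and 20.1% of the 8793 genes on the array.

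The largest fall among the guidance probe sets was that of sema6ca (2.53-fold) and the largest rise that of ephb2b (1.81-fold). The calls past 0.5 on the log2 scale numbered 7, beside 16.4% of all probe sets, and in each the groups did not overlap: sema6ca, efnb2a, sema4ab, slit2 and efna5b fell, and ephb2b and plxnd1 rose. Calls of at least 2-fold were 2, sema6ca and efnb2a, beside 4.44% of all probe sets. Whatever their size, 3 probe sets had every light lesion array above every control and 12 had every one below, beside 19.0% and 21.0% of all. Among 29 ligand probe sets (ephrins, semaphorins, Slits, netrins and Rtn4), 9 fell and none rose in the limma fit, beside 20.7% and 19.5% of all. At an unadjusted p under 0.05 the counts were 12 and 0, beside 3950 lower and 3479 higher of all 15502 probe sets. Among 18 receptor probe sets, 3 rose and 2 fell. The 29 ligand probe sets stood for 23 genes, and the 9 that fell included both probe sets of efnb1. Of these 9 calls, those of sema3d and sema3h did not hold when certain arrays were left out. The difference between the ligand and receptor counts was not tested.

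**Figure D1:**
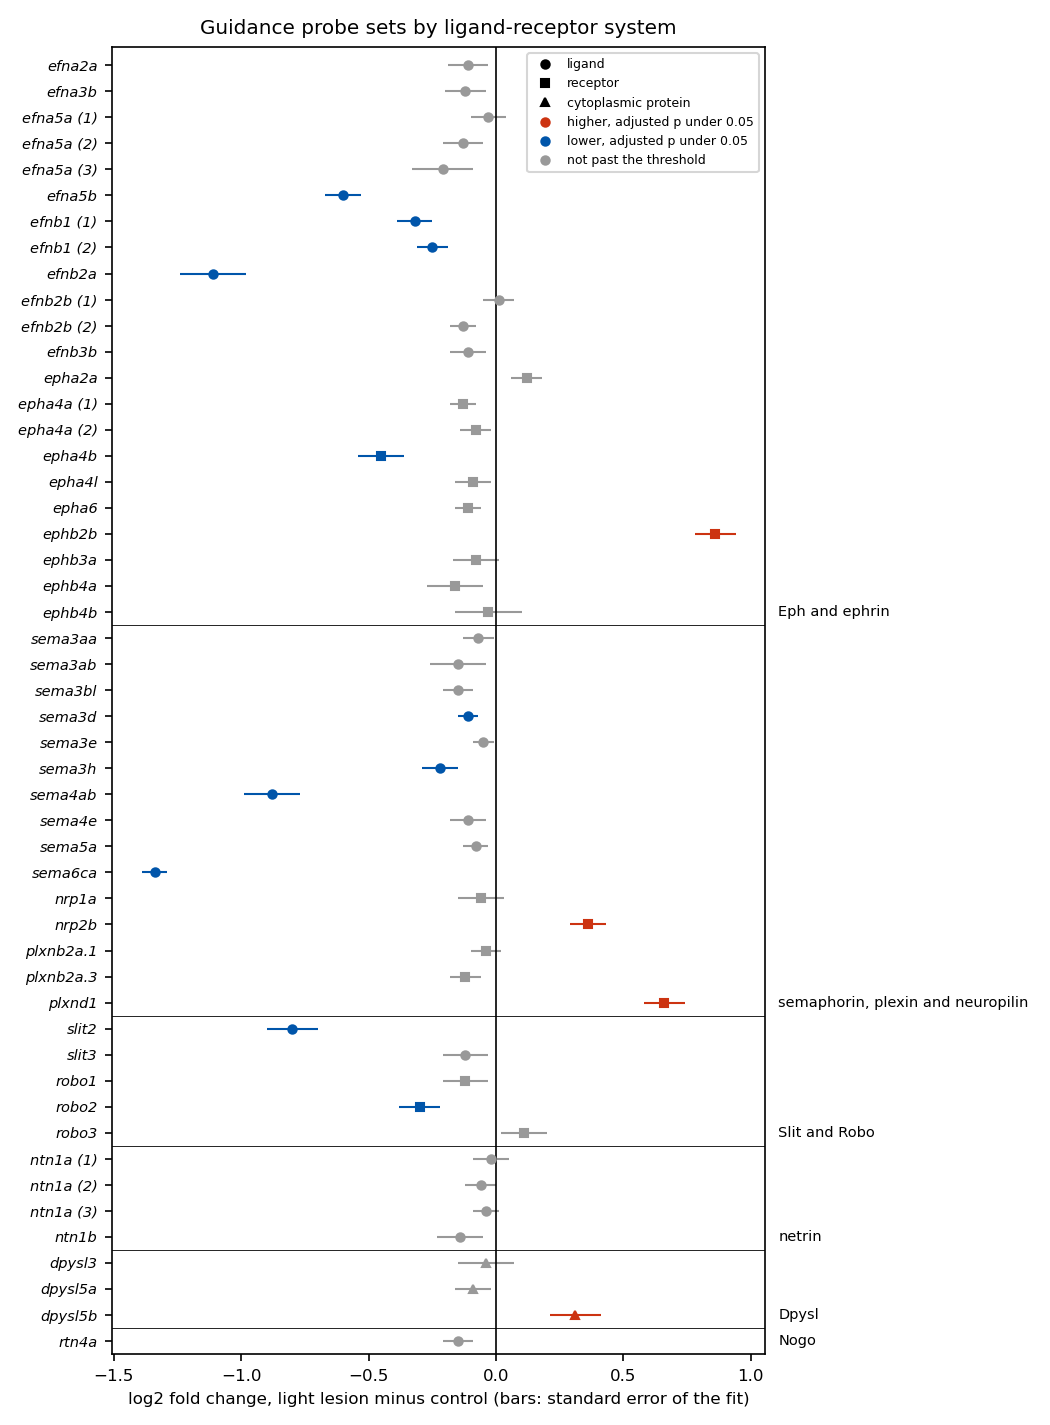
Log2 fold change (light lesion minus control, x axis) of the 50 guidance probe sets, grouped by ligand-receptor system, with the standard error of the limma fit as bars, and with numbers in brackets for probe sets of the same gene from brightest to dimmest. Blue and red mark the 11 probe sets that fell and the 4 that rose, and sema6ca (-1.34) and ephb2b (0.86) lie at the ends.

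Many of these transcripts were faint. The array's 27 control probe sets for Bacillus subtilis genes, which zebrafish RNA should not contain, had means from 5.83 to 7.04 over the 8 arrays, and the upper value is used here as a guide to background. Both group means lay at or under it in 15 of the 50 guidance probe sets, and 1 of those 15 was called, beside 13.9% of all probe sets at that level. The 15 were 11 of the 29 ligand probe sets and 4 of the 18 receptor probe sets. Of the 35 above the guide to background in at least 1 group, 4 rose and 10 fell, a share of 40.0%. Among all probe sets above it 53.3% were called, 26.3% higher and 27.0% lower. A difference measured near background may be smaller than the true one, and the lack of a call there says little about the transcript.

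**Figure D2:**
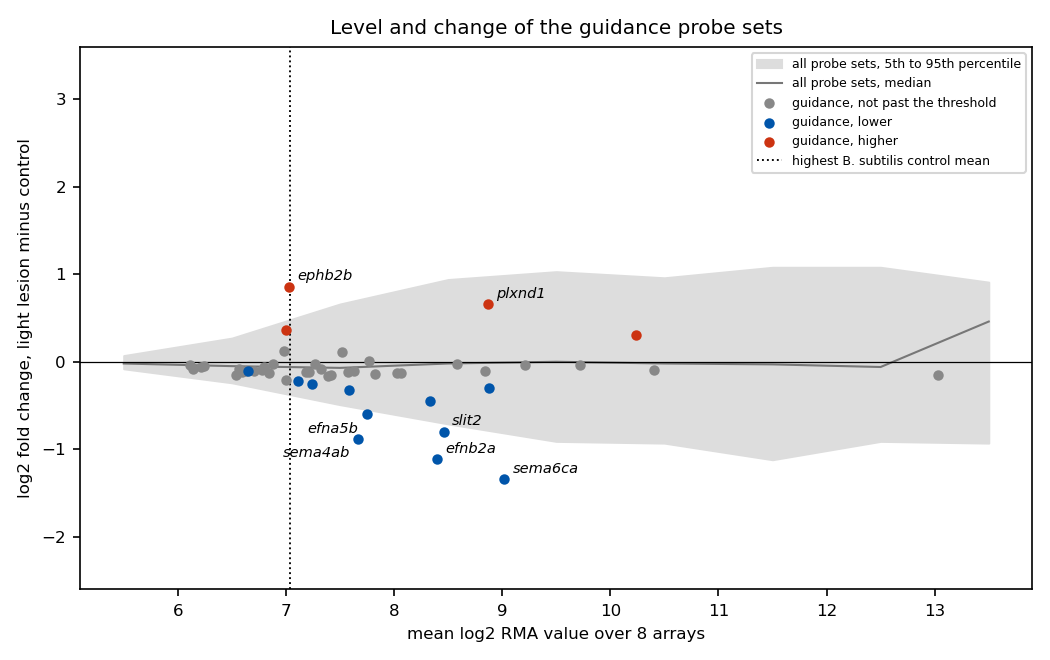
Log2 fold change (y axis) of the 50 guidance probe sets against their mean log2 RMA value over 8 arrays (x axis), over a grey band that spans the 5th to 95th percentile of all probe sets in bins 1 log2 unit wide. The dotted line is the guide to background at 7.04, ephb2b lies above the band, and sema6ca, efnb2a, sema4ab, slit2 and efna5b lie below it.

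Several features of the arrays moved with the groups or with single arrays. The markers of retinal cells were bright, with all 15 measured above background and the photoreceptor genes gnat1 and opn1sw2 at 14.49 and 14.48 in controls. Of these 15, 9 fell and 1 rose after the lesion, beside 20.1% and 24.4% of all genes on the array. The rod genes pde6a, gnat1 and gngt1 changed by -3.24, -1.82 and -0.92. Of the cone genes, gnat2, opn1lw1, pde6c, opn1sw2 and opn1sw1 fell (-0.83, -0.68, -0.61, -0.50 and -0.18). The cone gene gngt2a rose (0.34), while opn1mw1 and gngt2b did not pass (0.07 and -0.01). Among the other markers glula fell (-0.21), while crx, vsx1 and rlbp1a did not pass (-0.11, -0.10 and 0.03). The log2 of the summed linear values of the 15 was 17.68 to 17.75 in controls and 17.16 to 17.28 after the lesion. The brightest of the 15 in controls, the photoreceptor genes gnat1 and gngt2b (both 14.49), weigh most in the control sums. The GAPDH control probe sets, which gauge how intact the RNA was, differed between the 3′ and the 5′ end by a value that ran from 0.0297 to 0.0774 in controls and from 0.158 to 0.285 in light lesion arrays (p = 0.0286 in an exact two-sided permutation test, which with 4 against 4 arrays can go no lower). The same measure of the actin probe sets went the other way, with means of -1.39 in controls and -1.54 in light lesion arrays, overlapping groups and an exact permutation p of 0.2. Control replicate 3 had the highest mean of the B. subtilis probe sets, 6.55 beside 6.31 to 6.41 in the other controls. It was also the highest control in 28 of the 50 guidance probe sets, 56.0%, beside 36.4% of all probe sets. Other arrays stood apart as often: control replicate 1 was the lowest control in 58.0% of the guidance probe sets, beside 37.8% of all, and light lesion replicate 3 the lowest of its group in 46.0%, beside 24.7%. The background level of the arrays was entered as a covariate in an alternative fit, added after the data were seen. Among guidance probe sets that fit ended the call of dpysl5b (limma adjusted p = 0.056). It also called robo1 and rtn4a lower (0.0269 and 0.0422). The part of the other features in the results was not tested. Where leaving out an array ended a call of a guidance probe set, the adjusted p without that array is given.

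Ephrins are the membrane-bound ligands of the Eph receptor tyrosine kinases. Ephrin-As are held by a lipid anchor and ephrin-Bs span the membrane, and both can also signal back into the cell that carries them. Of 12 ephrin probe sets 4 fell and none rose (limma, and also none at an unadjusted p under 0.05). Over the whole array 20.7% fell and 19.5% rose.

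The transmembrane ligand efnb2a (Entrez Gene 30219), which marks dorsal retina and arterial endothelium in zebrafish, measured 8.81, 9.32, 8.78 and 8.91 in control replicates 1 to 4 and 7.70, 8.11, 7.71 and 7.87 in light lesion replicates 1 to 4. Replicate 2 was the highest array of each group, and every light lesion array lay more than 0.5 below every control. The mean fell from 8.95 ± 0.25 to 7.85 ± 0.19 (SD, n = 4), a 2.15-fold fall (log2 fold change -1.11, SE 0.13, limma adjusted p = 1.34e-04).

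The lipid-anchored ligand efna5b (Entrez Gene 30223), of the ephrin-A5 kind that repels retinal axons in the tectum, measured 7.92, 7.99, 8.23 and 8.05 in controls and 7.39, 7.43, 7.40 and 7.57 after the lesion. The groups did not overlap, and the 4 light lesion arrays lay within 0.2 of each other. The log2 fold change was -0.60 (SE 0.07, limma adjusted p = 1.55e-04), from 8.05 ± 0.13 to 7.45 ± 0.08.

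Both probe sets of efnb1, another transmembrane ephrin, fell by similar amounts. The brighter read 7.61, 7.74, 7.79 and 7.83 in controls and 7.41, 7.50, 7.30 and 7.49 in light lesion arrays, a log2 fold change of -0.32 (SE 0.07, limma adjusted p = 0.00353). The dimmer read 7.22, 7.40, 7.46 and 7.38 against 7.15, 7.13, 7.02 and 7.17, with a log2 fold change of -0.25 and an adjusted p of 0.0107. Neither probe set had overlapping groups, although the margin of the dimmer one was narrow.

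The paralogues of these ligands were measured without a call. The 3 probe sets of efna5a, the paralogue of efna5b, differed by -0.03, -0.13 and -0.21 (smallest adjusted p = 0.194), and their groups overlapped. The brighter probe set of efnb2b, the paralogue of efnb2a, stood at 7.76 ± 0.07 and 7.77 ± 0.10. Its dimmer probe set, at background, differed by -0.13 without overlap of the groups (adjusted p = 0.0783). The other ligands efna2a, efna3b and efnb3b differed by -0.11, -0.12 and -0.11, with efna3b at background in both groups.

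Among 10 Eph receptor probe sets 1 rose and 1 fell, beside 19.5% and 20.7% of all probe sets. The receptor ephb2b (Entrez Gene 554232), which binds ephrin-Bs and whose mouse counterpart is strongest in ventral retina, measured 6.50, 6.58, 6.72 and 6.59 in controls and 7.57, 7.55, 7.25 and 7.46 after the lesion. All 4 control values lay under the guide to background and all 4 light lesion values above it, so the size of the rise may be understated. The mean rose from 6.60 ± 0.09 to 7.46 ± 0.15, a log2 fold change of 0.86 (SE 0.08, limma adjusted p = 2.63e-05).

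The receptor epha4b, of the EphA4 kind that binds both ephrin-As and ephrin-Bs, fell from 8.63, 8.48, 8.53 and 8.58 in controls to 8.0, 7.90, 8.28 and 8.26. Light lesion replicates 1 and 2 lay lower than replicates 3 and 4, and all 4 lay below the controls. The log2 fold change was -0.45 (SE 0.09, limma adjusted p = 0.00294). The paralogue epha4a differed by -0.13 at its brighter probe set (adjusted p = 0.0843) and by -0.08 at the dimmer, which lay at background.

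The remaining Eph receptors did not pass. The receptor epha2a differed by 0.12 (adjusted p = 0.109) and epha6 differed by -0.11 (adjusted p = 0.124), and these had the smallest p among the receptors not called besides epha4a. Differences of ephb3a, ephb4a, ephb4b and epha4l were -0.08, -0.16, -0.03 and -0.09. Both group means of epha6 and of epha4l lay at background, as did the control mean of epha2a. The receptor ephb4a, which marks veins as the partner of efnb2a in arteries, ran from 7.19 to 7.80 among the controls and ephb4b from 7.07 to 7.65, with control replicate 3 the highest in both. A probe set of ek1, a gene whose synonyms in the RefSeq table include epha3 and which the choice by symbol did not take, stood at 6.99 ± 0.10 and 7.02 ± 0.06. Both means of ek1 lay at background.

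Semaphorins are repulsive or attractive ligands. Class 3 members are secreted and act through neuropilin and plexin together, while members of classes 4 to 6 are bound to the membrane and act on plexins. All 10 semaphorin probe sets had a log2 fold change below 0, as had 9345 of all 15502 probe sets. Of the 10, 6 lay at background in both groups. In the limma fit 4 fell and none rose, beside 20.7% and 19.5% of all probe sets. At an unadjusted p under 0.05, 5 were lower and 0 higher.

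The transmembrane semaphorin sema6ca (Entrez Gene 406272), whose class acts on A-type plexins, measured 9.69, 9.72, 9.66 and 9.67 in controls and 8.34, 8.48, 8.28 and 8.30 after the lesion. The lowest control lay more than 1 log2 unit above the highest light lesion array. The mean fell from 9.69 ± 0.03 to 8.35 ± 0.09, a log2 fold change of -1.34 (SE 0.05, limma adjusted p = 2.33e-07).

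The transmembrane semaphorin sema4ab (Entrez Gene 571290) is a counterpart of mammalian Sema4A, whose loss causes photoreceptor degeneration in mice. It measured 8.20, 8.14, 7.78 and 8.31 in controls and 7.35, 7.25, 7.16 and 7.17 after the lesion. Control replicate 3 was the lowest control, yet the groups did not overlap, and the light lesion values came close to the guide to background. The log2 fold change was -0.88 (SE 0.11, limma adjusted p = 1.38e-04).

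The secreted class 3 semaphorins changed little. The call of sema3h, at 7.13, 7.08, 7.38 and 7.28 against 7.02, 6.89, 7.02 and 7.07 (log2 fold change -0.22, adjusted p = 0.0408), was lost without control replicate 3 (adjusted p = 0.0869), control replicate 4 (0.108) or light lesion replicates 1, 2 or 3 (0.0598, 0.108 and 0.0695). The call of sema3d, which guides retinal axons in zebrafish, rested on a difference of -0.11 between tight groups, 6.70 to 6.73 and 6.57 to 6.61, all at background (adjusted p = 0.0451). It was lost when any of the 8 arrays was left out, with adjusted p from 0.0549 to 0.117, and with the replicate number as a block (adjusted p = 0.130). A second quantile normalization (adjusted p = 0.108) and a trended and robust prior (0.0517) also ended the call of sema3d. That of sema3h was lost with array weights too (adjusted p = 0.0595).

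The class 3 members not called were sema3aa and sema3ab, counterparts of the repulsive Sema3A, with differences of -0.07 and -0.15, sema3bl with -0.15 (adjusted p = 0.0791) and sema3e with -0.05. The membrane-bound sema4e and sema5a differed by -0.11 and -0.08. Of these 6 probe sets all but that of sema3ab lay at background in both groups.

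Of 5 probe sets for receptors of the semaphorins 2 rose and none fell (limma, also none at an unadjusted p under 0.05). Over the whole array 19.5% rose and 20.7% fell. The receptor plxnd1 (Entrez Gene 402998), the plexin that Sema3E binds without a neuropilin and a regulator of vessel growth, measured 8.38, 8.49, 8.69 and 8.60 in controls and 9.21, 9.16, 9.06 and 9.36 after the lesion. The lowest light lesion array, 9.06, lay above the highest control, 8.69. The mean rose from 8.54 ± 0.13 to 9.20 ± 0.12, a log2 fold change of 0.66 (SE 0.08, limma adjusted p = 1.85e-04). Its ligand sema3e lay at background in both groups, at 6.26 ± 0.04 and 6.22 ± 0.02.

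The co-receptor nrp2b, a neuropilin for class 3 semaphorins and vascular growth factors, measured 6.81, 6.82, 6.98 and 6.69 in controls and 7.13, 7.27, 7.17 and 7.16 after the lesion. Controls lay under the guide to background and light lesion arrays just above it. The log2 fold change was 0.36 (SE 0.07, limma adjusted p = 0.00189). The other neuropilin, nrp1a, lay at background (6.83 ± 0.17 and 6.77 ± 0.10), and the B-type plexins plxnb2a.1 and plxnb2a.3, receptors of class 4 semaphorins, differed by -0.04 and -0.12 (adjusted p = 0.641 and 0.128). No A-type plexin was among the probe sets chosen by name, so the usual partners of sema6ca and of nrp2b were not analysed here.

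**Figure D3:**
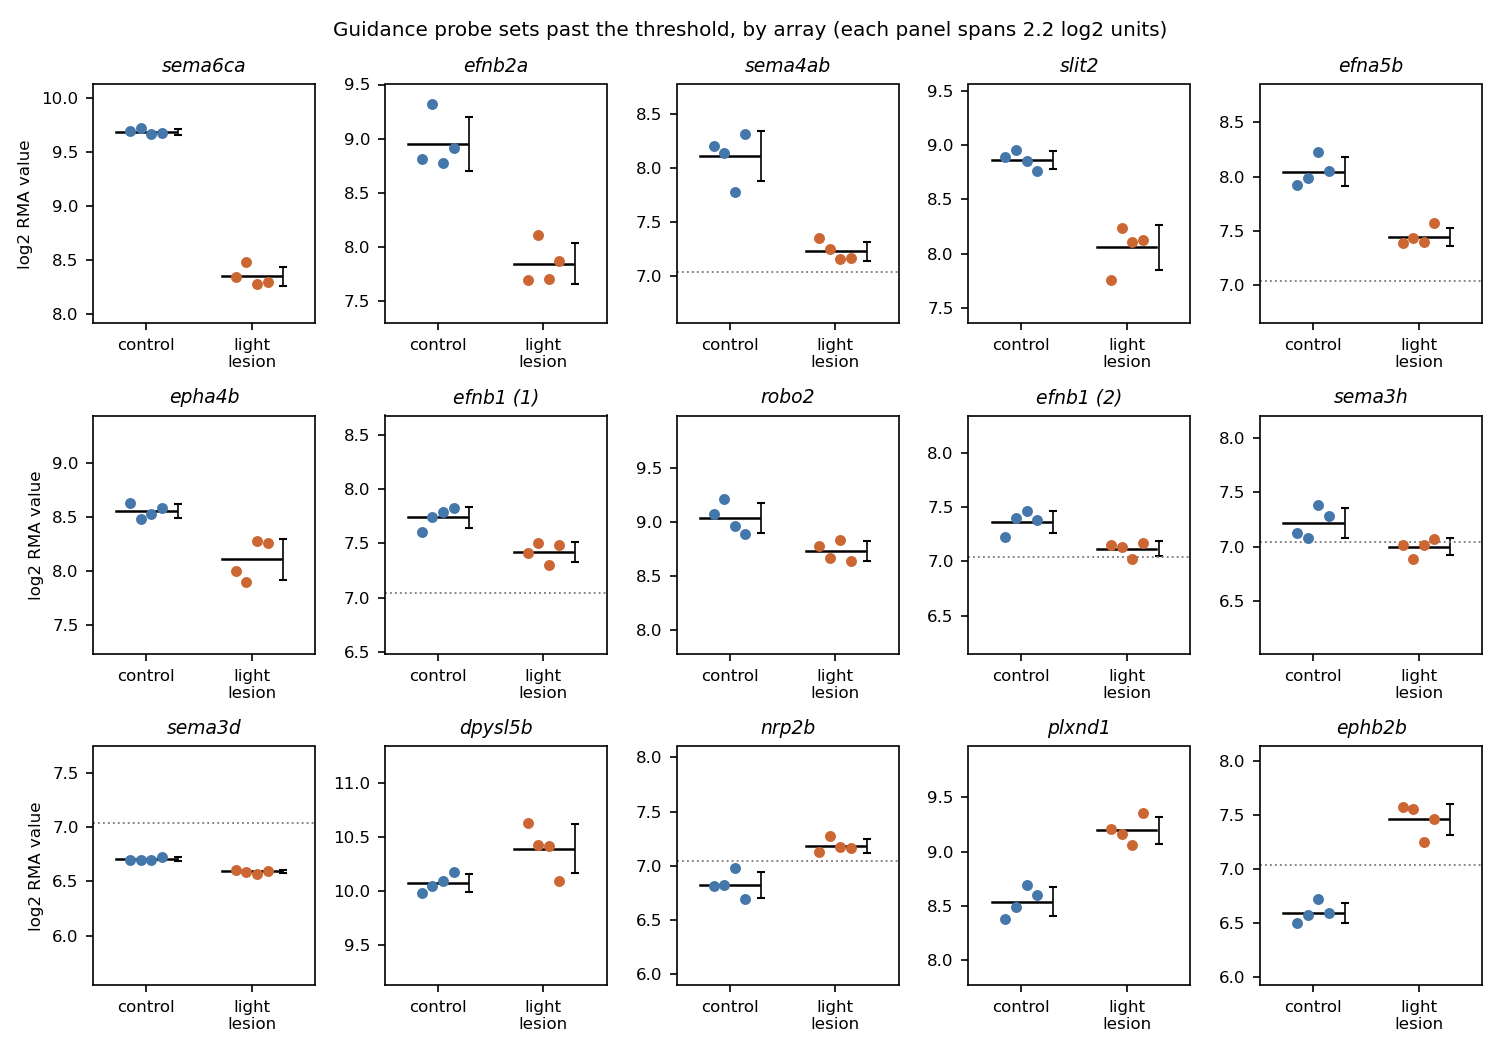
Log2 RMA value (y axis, 2.2 log2 units in each panel) in every control (blue) and light lesion (orange) array for the 15 guidance probe sets past the threshold, ordered by log2 fold change, with group means as lines, SD as bars (n = 4) and the guide to background (7.04) dotted. In 14 panels the groups do not overlap, and in that of dpysl5b a light lesion array at 10.09 falls among the controls.

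Slits are secreted repellents that act through Robo receptors, and robo2 is the gene of the zebrafish mutant astray, in which retinal axons lose their way. In this system 2 of 5 probe sets fell and none rose (limma, also none at an unadjusted p under 0.05), beside 20.7% and 19.5% of all probe sets. The ligand slit2 (Entrez Gene 80353) measured 8.89, 8.96, 8.85 and 8.76 in controls and 7.76, 8.24, 8.11 and 8.13 after the lesion. Light lesion replicate 1 was the lowest, and all 4 lay more than 0.5 below the lowest control. The mean fell from 8.86 ± 0.08 to 8.06 ± 0.21, a log2 fold change of -0.80 (SE 0.10, limma adjusted p = 1.61e-04).

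Its receptor robo2 read 9.07, 9.21, 8.96 and 8.89 in controls and 8.78, 8.67, 8.83 and 8.64 after the lesion. The groups came close without overlap, and the log2 fold change was -0.30 (SE 0.08, limma adjusted p = 0.0108). The other ligand, slit3, differed by -0.12 and the receptors robo1 and robo3 by -0.12 and 0.11 (adjusted p = 0.346, 0.330 and 0.391), with overlapping groups. The probe set of robo3, named for its role in axons that cross the midline, may detect several transcripts of the gene.

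Netrin-1 is the secreted cue that guides axons into the optic nerve head. None of 4 netrin probe sets passed, beside 40.2% of all probe sets, and none had an unadjusted p under 0.05. The 3 probe sets of ntn1a lay at background in both groups, with means over the 8 arrays from 6.11 to 6.88, and ntn1b stood at 7.89 ± 0.18 and 7.75 ± 0.06 (adjusted p = 0.243). No probe set chosen by name was annotated with the netrin receptor Dcc or an Unc5 receptor, so these were not analysed here. The gene unc50, which shares the first letters, encodes another protein. The netrin receptor neo1a was read among the co-receptors below.

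The Dpysl proteins carry guidance signals to microtubules inside the growth cone, and dpysl3 and dpysl5 are prominent in young neurons. Of 3 probe sets, all well above background, 1 rose and none fell, beside 19.5% and 20.7% of all probe sets. The probe set of dpysl5b read 9.98, 10.05, 10.09 and 10.18 in controls and 10.63, 10.43, 10.42 and 10.09 after the lesion. Light lesion replicate 4 overlapped the controls and replicate 1 was the highest. The log2 fold change was 0.31 (SE 0.10, limma adjusted p = 0.0347). This call was lost without any of replicates 1 to 3 of either group (adjusted p from 0.0646 to 0.0807) and with the replicate number as a block (adjusted p = 0.0757). A second quantile normalization (adjusted p = 0.0533) and a background covariate (0.056) also ended the call of dpysl5b. Its paralogue dpysl5a stood at 10.45 ± 0.08 and 10.36 ± 0.13, and dpysl3 at 9.74 ± 0.20 and 9.70 ± 0.16.

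The signal of rtn4a was far above background. In mammals the longest Rtn4 protein, Nogo-A, is an inhibitor of axon growth found in myelin. The probe set read 13.15, 13.14, 13.08 and 13.05 in controls and 12.97, 13.05, 12.84 and 12.96 after the lesion, a difference of -0.15 that did not pass (SE 0.06, limma adjusted p = 0.0624). The groups met at 13.05, which was the lowest control and the highest light lesion array. It passed in 5 of 15 alternatives: without light lesion replicate 2 (adjusted p = 0.0364), with a trended and robust prior (0.0473), with array weights (0.0368), with a background covariate (0.0422) and after a second quantile normalization, where the difference was -0.29 (0.00122). Over all 15 the adjusted p ran from 0.00122 to 0.161.

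The probe sets taken only by their names rose or did not pass. The enzyme dcxr was 0.42 higher (adjusted p = 0.00532) and unc50 0.28 higher (adjusted p = 0.00309), both without overlap of the groups. The mitochondrial rtn4ip1 differed by 0.08 (adjusted p = 0.349). The probe set annotated with both dcxr and col1a1b differed by 0.14 (adjusted p = 0.234).

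Genes that act beside or below these cues were read from 2 lists. Of 60 listed co-receptors, adhesion proteins and further cues, 33 were measured, of which 4 rose and 10 fell (42.4% called, beside 44.5% of all genes), with a median log2 fold change of -0.09 beside -0.03 for all genes. Of the 33, 11 lay at background in both groups. The 10 falls became 5 without control replicate 4 and 6 without light lesion replicate 3. The largest falls were those of tnr, the matrix protein tenascin-R (-1.14), lingo1b, counterpart of a part of the mammalian Nogo receptor complex (-1.11), and vegfaa, a vascular growth factor that also binds neuropilins (-0.67). The chemokine receptor cxcr4b (1.21), the netrin and Rgm receptor neo1a (0.40) and the growth factor receptor met (0.36) rose most. The light lesion mean of vegfaa and the control mean of cxcr4b lay at background, and the groups of met overlapped.

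Of 102 listed cytoplasmic effectors of the growth cone, 51 were measured, of which 19 rose and 11 fell. That is 58.8% called, beside 44.5% of all genes, 24.4% higher and 20.1% lower. Only 4 of the 51 lay at background in both groups. Over all probe sets the share called grew with level, from 18.8% between 6 and 7 to 64.4% between 10 and 11. The effectors were not compared with genes of like level. The median log2 fold change of the effectors was 0.01, beside -0.03 for all genes. The tubulin tubb5 (2.51) and the membrane-linked actin regulators marcksa (2.47) and marcksb (1.74) rose most. The largest falls were those of rnd3b (-0.47, at background after the lesion), the adaptor nck2b (-0.45) and farp2 (-0.43). In mice the Rac regulator Farp2 is bound by plexin A. Some paralogues among the effectors were called in opposite directions. The adaptor nck1a, whose control mean lay at background, rose by 0.57 beside the fall of nck2b. The other adaptors of this kind, nck1b and nck2a, did not pass (-0.03 and -0.14). The focal adhesion kinases ptk2aa and ptk2ab changed by 0.65 and -0.40. Likewise cdc42l changed by 0.74 and cdc42 by -0.27, and rac1a by 0.46 while rac3a and rac3b changed by -0.26 and -0.33.

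**Figure D4:**
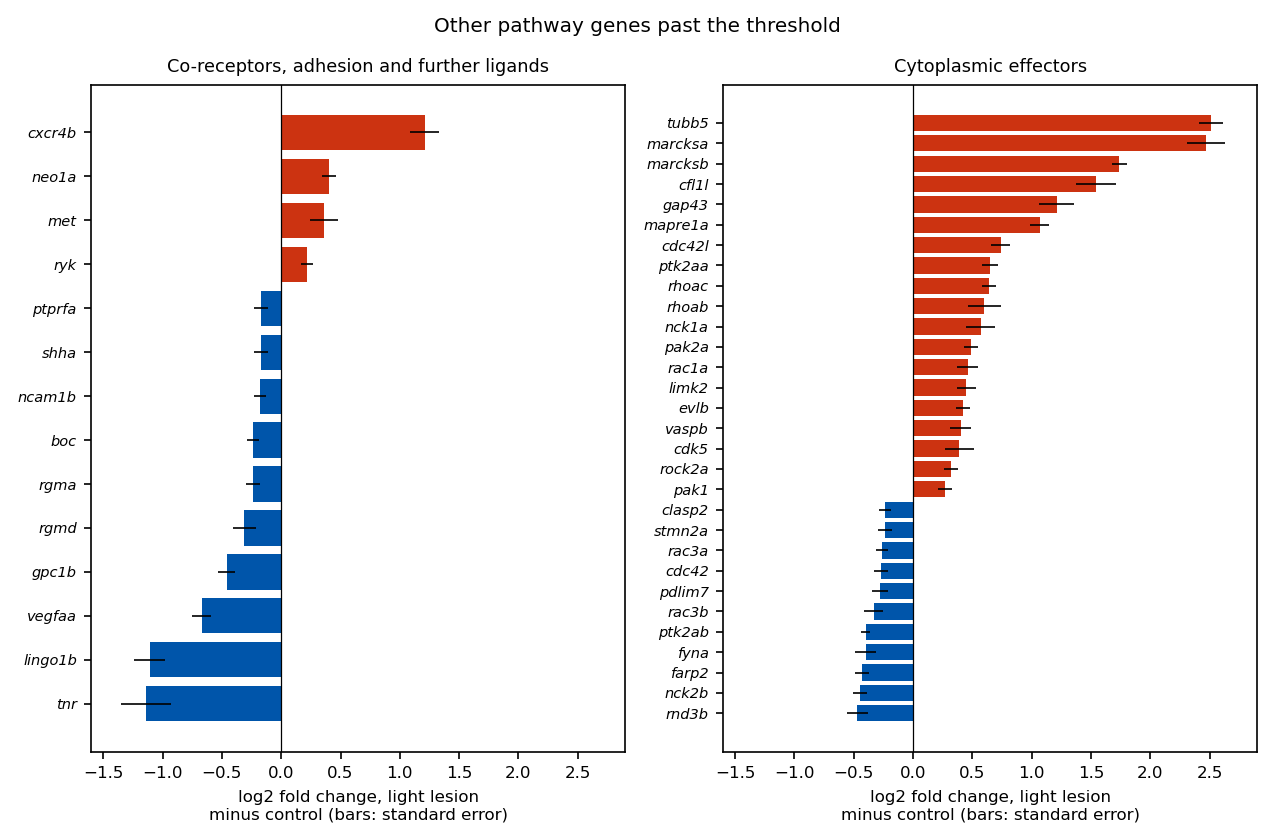
Log2 fold change (light lesion minus control, x axis, bars show the standard error of the limma fit) of the 14 co-receptor, adhesion and cue genes (left) and the 30 cytoplasmic effector genes (right) that passed the threshold. Red bars rose and blue bars fell. On the left 10 of the 14 fell (5 without control replicate 4, 6 without light lesion replicate 3). On the right 19 of the 30 rose. Of all 3915 genes called on the array, 2145 rose and 1770 fell.

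Markers of several other cell types moved with the groups too. Over all genes 24.4% rose and 20.1% fell. Of 13 ganglion cell markers 9 fell and 3 rose, atoh7 (1.24), gap43 (1.21) and thy1 (0.33). The control means of atoh7 and thy1 lay at background, as did the light lesion mean of isl2a, which fell. The gene gap43 was also counted among the effectors that rose. The log2 of the summed linear values of the 13 was 13.88 to 13.98 in controls and 13.32 to 13.38 after the lesion. Of 9 vascular markers, relevant to efnb2a, plxnd1 and nrp2b, aqp1a.1 fell (log2 fold change -0.41) and the other 8 did not pass, with a median log2 fold change of -0.03 over the list. The summed levels, 11.85 to 11.93 and 11.46 to 11.72, consist mostly of aqp1a.1. The endothelial and mural markers kdrl, tie1, tek, flt4 and tagln lay at background in both groups. Of 14 microglia and leukocyte markers 12 rose and 1 fell (14.01 to 14.12 against 14.42 to 14.62). Of 5 markers of myelinating glia, olig2 rose and mbpa and cldnk fell (12.49 to 12.54 against 11.77 to 12.07), all 11 markers of proliferating and reprogrammed Müller glia rose (13.28 to 13.37 against 14.76 to 14.98), and 5 of 7 pigment cell markers rose (14.85 to 15.01 against 15.55 to 15.72), with tyr at background. In the other marker lists no member lay at background in both groups. The brightest members weigh most in each sum. In controls the brightest were sncgb (12.79, ganglion cells), apoeb (13.22, microglia and leukocytes), mbpa (11.74, myelinating glia) and rgrb (13.85, pigment cells). In the Müller glia list the brightest was pcna in controls (11.36) and fabp7a after the lesion (13.44). That list includes pcna, mki67, cdk1, mcm2 and mcm5, which mark dividing cells of any type, so its rise does not single out Müller glia. The part of these cell types in the guidance results was not tested.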

How the data were processed

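Whole-retina RNA was labelled with biotin by in vitro transcription for Affymetrix zebrafish arrays, per the labels. The values deposited by the authors are on a log2 scale, 1 for each array and probe set. The submitters' processing notes name RMA, with no version or software (not given in the sources used here). Which log base was used is not stated and was inferred from the range of the values, 5.47 to 14.89. Array medians lay between 7.63 and 7.69. Arrays have no read depth, so precision is limited by their number. The 115 control probe sets (AFFX) were left out of the tests. Symbols came from GEO's platform annotation, and all 53 members with 1 symbol were found under the same symbol in the RefSeq table by gene identifier. Coordinates are not given, since no genome build is named.

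Groups came from the sample titles. The fit of light lesion against control used lmFit and eBayes of limma 3.58.1 under R 4.3.3, without covariate or filter and two-sided, over all 15502 probe sets, with Benjamini-Hochberg adjustment and a threshold of 0.05. Named were all members past the threshold, with every array's value for those past 0.5 on the log2 scale without overlap, and in each system the others of smallest p. Values are also given in every array for the other calls and for rtn4a, and the remaining members and the paralogues of effectors are named in passing; these were chosen after their values were seen. In the lists of other pathway genes up to 3 per direction were named. The fit was also run on simulated arrays, and no result given here rests on that run. Alternatives were median centring, array weights, a trended and robust prior, omission of the dimmest 25% of probe sets, quantile normalization once more, a block on the replicate number, each array left out, a threshold of 0.01 and the mean of a gene's probe sets, with a background covariate added after the data were seen. The members, lists and tests were chosen with earlier results of these data known.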

Additional observations from a re-analysis of the deposited data

Results flagged for a closer look

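In 6 of 108 groups of 4 arrays, 1 array lay far from the other 3 by Dixon's test of the gap over the range at the 95% level, which chance passes in about 1 in 20 groups, here about 5.4. In controls, replicate 3 was high for sema3ab (7.86, the next 7.41) and nrp1a (7.08, the next 6.75). In light lesion arrays, replicate 1 was high for epha4l (6.78), sema3ab (7.45) and sema3e (6.24), and replicate 4 for unc50 (10.64, the next 10.56). Only unc50 among these genes was called.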

How the results depend on the processing

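Of the 15 guidance probe sets called, 12 kept their call and direction in all 15 other fits at the 0.05 threshold, and sema3d, sema3h and dpysl5b lost it in some, with no change of direction. Of the guidance probe sets not called, 6 passed in at least 1 of these fits: rtn4a, epha2a, epha6, robo1, sema3bl and plxnb2a.3. At a threshold of 0.01, the members called lower numbered 7 rather than 11 and the co-receptor genes called lower 5 rather than 10. Leaving out 1 array gave 9 to 12 members lower, 5 to 6 higher, and 5 to 11 co-receptor genes lower (5 without control replicate 4, 6 without light lesion replicate 3). Array weights gave more, with 14 members and 13 co-receptor genes lower. The background covariate gave 13 members and 10 co-receptor genes lower. With the replicate number as a block, 5 members were higher, 10 lower and 5638 probe sets of the array called. The block ended the calls of sema3d and dpysl5b among the guidance probe sets. The numbers were not taken as pairs, since the labels do not say that they mark a shared batch. Deviations of same-numbered arrays from their group means had r of -0.21, 0.277, -0.236 and 0.171. Arrays of unlike number had r from -0.344 to 0.329. With 4 arrays a group, these values cannot show whether same-numbered arrays shared a batch. Changes of sign were seen in 7 probe sets that were not called: ntn1a (0.00 after a second quantile normalization), efnb2b (-0.02 with array weights) and, with the background covariate, ephb3a (0.02), ephb4b (0.12), ntn1a (0.03) and nrp1a (0.03). With 1 array left out, which adds dpysl3 and efna5a, they ran from -0.13 to 0.03 (dpysl3), -0.09 to 0.03 (efna5a), -0.02 to 0.06 (efnb2b), -0.13 to 0.00 (ephb3a), -0.11 to 0.10 (ephb4b), -0.07 to 0.01 (ntn1a) and -0.10 to 0.02 (nrp1a). The cause was not tested. Signal near background limits the 15 faint guidance probe sets.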
